A study of Homo sapiens with 2 samples.

Results

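The genes described here are the nuclear-encoded subunits of the mitochondrial respiratory chain and of the ATP synthase. They were chosen by gene symbol, from the families whose names begin with NDUFA, NDUFB, NDUFC, NDUFS, NDUFV, SDH, UQCR, COX4 to COX8 and ATP5, together with CYC1. This gave 82 of the 19777 genes that have a probe set naming 1 gene on the array. Affymetrix arrays read a transcript with probe sets, each made of several short oligonucleotides, and the brightest one over both arrays stood for its gene, so the members' values were selected on measured intensities. By complex, 35 symbols belonged to complex I, 3 to complex II, 7 to complex III, 18 to complex IV and 19 to complex V. Of the 82 members, 77 were protein-coding genes and 5 were not: the antisense RNAs NDUFB2-AS1 and NDUFV2-AS1, the divergent transcript NDUFV1-DT and the pseudogenes ATP5MC2P1 and COX6A1P1. Of the coding genes, ATP5IF1 encodes an inhibitor of the ATP synthase and COX7A2L a factor that joins complexes III and IV, and neither is itself a subunit of the enzyme's basic structure. Some further subunits were not analysed here.

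The study set MKN28, a human gastric cancer cell line, infected with a lentivirus carrying the transcription factor Sox2 and selected with puromycin, against MKN28 cells labelled as control (NC), whose own treatment the labels do not give. Cell line registers list MKN28 as a derivative of another gastric line, MKN74, and both arrays carry that limit. Each group was read on 1 Affymetrix array, so every difference below is between 2 arrays, has no replicate error and was not tested. Differences are on the log2 scale, Sox2 minus control. The yardsticks were a technical SD of 0.28, from the disagreement of probe sets within 3471 genes, and the counts over all genes. The deposited intensities had medians of 34.25 in the Sox2 array and 34.26 in the control array. SOX2 itself read 172 in the Sox2 array and 123 in the control array by its brightest probe set (log2 difference 0.49), and its 3 other probe sets differed by 0.31, -0.023 and -0.46, so the labels could not be checked by the transferred gene. Of 6 gastric epithelial markers, 5 passed the filter on dim genes, EPCAM was dim at 4.96 in Sox2 and 6.32 in control, and the summed intensity was 323 in the Sox2 array and 344 in the control array. The 5 mesenchymal markers summed to 6937 in the Sox2 array and 5355 in the control array, most of it VIM, and the part of this in the results was not tested. Neither list moved as a whole. KRT8, KRT19 and MUC1 were higher in the Sox2 array and EPCAM, CDH1 and KRT18 lower. VIM, COL1A2 and COL3A1 were higher there and COL1A1 and PDGFRB lower.

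The respiratory chain moves electrons from NADH (complex I) and succinate (complex II) through ubiquinone to complex III, then by cytochrome c to complex IV, which reduces oxygen to water. Complexes I, III and IV pump protons across the inner mitochondrial membrane, and the ATP synthase (complex V) lets them return through a rotating ring and uses the flow to make ATP. Complex II is built from nuclear genes alone, while the other complexes also contain subunits encoded in mitochondrial DNA. Nuclear genes of the chain are known to be driven by the transcription factors NRF1 and GABPA.

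The promoters of the members that differed most are shown so that the binding motifs of these factors can be read. The selection took the subunit with the largest difference in each complex, and also ATP5MC1, which encodes the same ring protein as ATP5MC2. The sequences are from RefSeq on GRCh38.p14 and cover the 250 bases before the first listed transcript start, written 5′ to 3′ on the strand of the gene. They lie at chr7:140696458-140696707 (+ strand) for NDUFB2, chr5:218070-218319 (+ strand) for SDHA and chr19:1605463-1605712 (- strand) for UQCR11. Those of COX7C, ATP5MC2 and ATP5MC1 lie at chr5:86617691-86617940 (+ strand), chr12:53676084-53676333 (- strand) and chr17:48892537-48892786 (+ strand). Capitals mark matches to any of the motifs searched on both strands: CGCANGCG (NRF1 core), CCGGAAG (ETS core, bound by GABPA), TGACGTCA (cAMP response element) and CATTGTT and CTTTGTT (SOX motifs).
NDUFB2: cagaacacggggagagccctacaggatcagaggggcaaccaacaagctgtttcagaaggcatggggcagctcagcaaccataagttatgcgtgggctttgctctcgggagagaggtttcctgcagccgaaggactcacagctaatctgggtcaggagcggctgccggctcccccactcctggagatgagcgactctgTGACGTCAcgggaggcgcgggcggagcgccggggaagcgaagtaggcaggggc
SDHA: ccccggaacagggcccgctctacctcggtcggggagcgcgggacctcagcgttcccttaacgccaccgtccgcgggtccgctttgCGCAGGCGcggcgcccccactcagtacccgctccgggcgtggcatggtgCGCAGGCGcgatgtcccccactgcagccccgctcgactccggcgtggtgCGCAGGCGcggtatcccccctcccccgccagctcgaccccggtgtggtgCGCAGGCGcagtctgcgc
UQCR11: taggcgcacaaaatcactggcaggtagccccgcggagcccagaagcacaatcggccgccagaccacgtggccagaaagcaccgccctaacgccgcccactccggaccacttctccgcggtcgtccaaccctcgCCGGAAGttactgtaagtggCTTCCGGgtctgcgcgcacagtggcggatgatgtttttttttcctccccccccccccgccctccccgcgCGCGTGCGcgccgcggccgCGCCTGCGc
COX7C: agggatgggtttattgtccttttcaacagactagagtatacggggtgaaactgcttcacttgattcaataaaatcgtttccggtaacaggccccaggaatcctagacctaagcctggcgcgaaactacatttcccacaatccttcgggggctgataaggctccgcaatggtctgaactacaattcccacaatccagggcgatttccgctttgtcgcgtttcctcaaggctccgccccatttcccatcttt
ATP5MC2: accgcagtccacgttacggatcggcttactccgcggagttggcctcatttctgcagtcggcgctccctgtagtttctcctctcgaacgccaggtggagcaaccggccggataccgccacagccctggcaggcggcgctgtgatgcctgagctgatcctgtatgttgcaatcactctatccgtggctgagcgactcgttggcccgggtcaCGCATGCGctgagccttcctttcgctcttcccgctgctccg
ATP5MC1: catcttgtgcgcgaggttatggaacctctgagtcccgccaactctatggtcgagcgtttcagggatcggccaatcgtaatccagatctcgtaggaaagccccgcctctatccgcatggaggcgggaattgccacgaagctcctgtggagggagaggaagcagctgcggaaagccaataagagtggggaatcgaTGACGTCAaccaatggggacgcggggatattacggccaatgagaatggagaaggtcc

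In these windows SDHA held 4 matches to the NRF1 core, UQCR11 held 2 to the NRF1 core and 2 to the ETS core, and ATP5MC2 held 1 to the NRF1 core. NDUFB2 and ATP5MC1 each held 1 cAMP response element and COX7C held none of the motifs. Over the 65 coding members with a promoter in the table, 22 (33.8%) held the NRF1 core, against 12.5% of 15842 coding promoters of the same length. The ETS core was in 15 members (23.1%), against 11.8% of all. The cAMP response element was in 4 (6.15%), against 2.32%: ATP5MC1, ATP5ME, NDUFA10 and NDUFB2. The SOX motifs were in 2 members each (3.08%), against 1.93% and 3.52% of all. Median log2 differences between the arrays were -0.32 for 18 members with the NRF1 core and -0.22 for 35 without. They were -0.16 for 13 members with the ETS core and -0.32 for 40 without. For the cAMP response element they were -0.72 for the 4 members with it, NDUFB2 among them, and -0.22 for 49 without. For the SOX motifs CATTGTT and CTTTGTT they were -0.23 and -0.19 for 2 members each with the motif, and -0.24 and -0.30 for 51 without. The -0.72 rests on brightest probe sets. Other probe sets past the filter on dim genes gave -0.037 for NDUFB2, 0.010 for ATP5ME, and -0.27 and 0.56 for NDUFA10. ATP5MC1 has a single probe set. A match is a string of letters and does not show that a factor binds.

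Most respiratory members read lower in the Sox2 array. A gene was counted if either array read it at 34.25 or more, the 50th percentile of the deposited intensities, and 67 of the 82 members passed this filter. Of these, 50 (74.6%) lay below 0, against 50.4% of all 14254 genes past the filter. At least 1.5-fold lower were 12 members (17.9%), against 3.77% of all genes, and 1 member, SDHA, was at least 1.5-fold higher (1.49%, against 6.46%). Shares over all genes take no account of level or genomic length, and counts within ranges of both are given further below. The 3 members at least 2-fold lower were NDUFB2, UQCR11 and ATP5MC2 (0.645% of all genes), and none was 2-fold higher (2.05% of all genes). The median log2 difference of the members past the filter was -0.22, against -0.0032 for all genes, with a range from -1.31 to 0.63. NDUFA9, NDUFB1, NDUFC1 and COX7A2L passed the filter only through the control array and so had to read lower in the Sox2 array. Therefore the 82 members were also counted with no filter. Then 61 (74.4%) lay below 0, against 50.4% of all 19777 genes, and 13 (15.9%) were at least 1.5-fold lower, against 4.53%. Just inside the 1.5-fold size were ATP5IF1 (1.52-fold lower) and ATP5F1D (1.53-fold lower), and just outside were ATP5ME and NDUFA10 (both 1.48-fold lower). Other probe sets past the filter gave log2 differences of 0.010 for ATP5ME, and of -0.27 and 0.56 for NDUFA10. At the filter, NDUFC1 entered with 35.75 in the control array and UQCRC2 stayed out with 31.94 as its higher value.

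**Figure D1:**
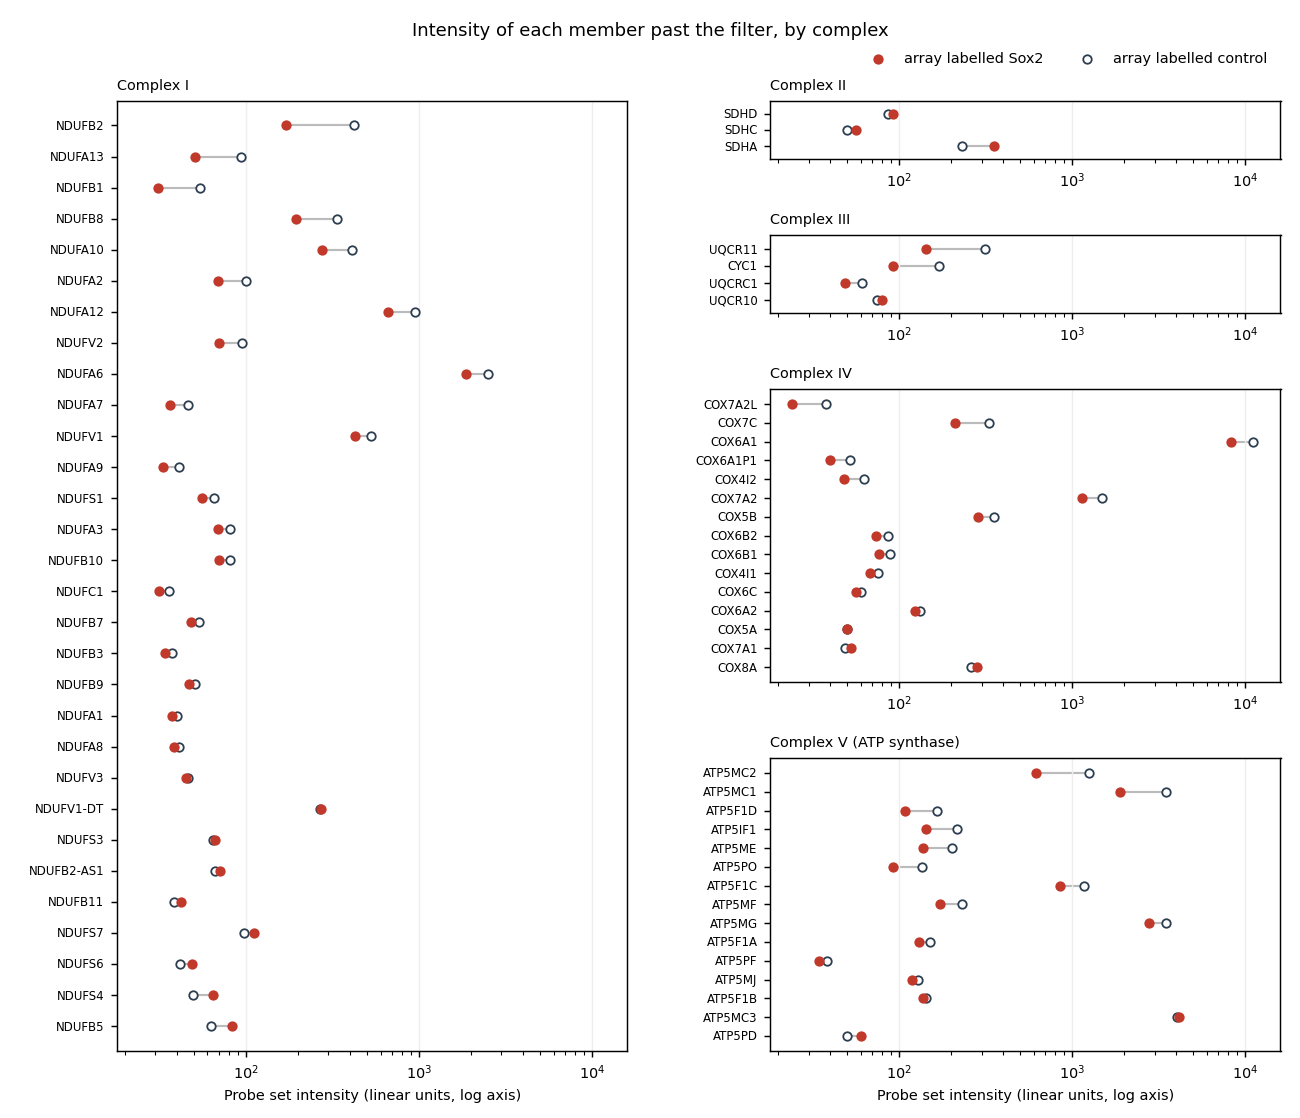
Each row is 1 of the 67 members past the filter, in panels by complex, and its filled point is the probe set intensity in the Sox2 array and its open point that in the control array, on a log axis. Filled points lie to the left of open ones for 50 members and to the right for 17, among them the 3 members of complex II.

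All of these directions are relative to the bulk of genes on the arrays. The 24 poly-A spike-in probe sets, bacterial RNAs added before labelling, were all lower in the Sox2 array, by a median of -0.75 on the log2 scale, and the median of the 18 hybridisation controls was 0.15. Centred on both kinds of control, the median of all genes moved to 0.63 and that of the members to 0.40. Fewer transcripts per cell and a smaller share of cells with a transcript cannot be told apart in RNA from a whole culture. Probe sets bind with different strength, so levels are compared between arrays and not between genes.

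Complex I members were lower in the Sox2 array by a median of -0.20 on the log2 scale, with 22 of 30 below 0 and 4 at least 1.5-fold lower. Of the 28 that are subunits, 22 lay below 0 and 4 (14.3%) were at least 1.5-fold lower, against 3.77% of all genes. NDUFB2, an accessory subunit of the membrane arm, read 171 in the Sox2 array and 423 in the control array, 2.48-fold lower, and ranked 24th lowest of the 14254 genes. That position rests on 1 of its probe sets, since its second one read 54.7 in Sox2 and 56.1 in control. NDUFB8, another membrane arm subunit, read 194 in the Sox2 array against 335 in the control array (1.72-fold lower), while 2 further probe sets gave log2 differences of -0.36 and 0.21. NDUFB1, also of the membrane arm, read 30.9 in Sox2 against 54.5 in control (1.76-fold lower) and passed the filter only through the control array. NDUFA13, a membrane-anchored accessory subunit that is also known as GRIM19, read 50.9 in Sox2 against 93.6 in control (1.84-fold lower). The brightest probe sets of NDUFB2, NDUFB1 and NDUFA13 carry the _s_at suffix, which marks probes shared by several transcripts, and that of NDUFB8 does not. The second NDUFB2 probe set, which lacks the suffix, showed a log2 difference of -0.037.

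Differences between the subunit families of complex I were not tested. All 10 NDUFA subunits past the filter, NDUFA9 among them, lay below 0, with a median of -0.38, and so did 7 of 9 NDUFB subunits, with a median of -0.16. Of the 5 NDUFS subunits, 4 lay above 0, with a median of 0.19. NDUFV1, which binds the FMN that takes electrons from NADH, read 426 in the Sox2 array and 531 in the control array (-0.32), and a second probe set read 179 in Sox2 and 182 in control. NDUFV2, an iron-sulfur subunit beside it, read 69.5 in Sox2 and 95.2 in control (-0.45). NDUFS1, the largest iron-sulfur subunit, read 55.5 in Sox2 and 65.5 in control (-0.24). NDUFS3, a core subunit near the ubiquinone site, read 66.4 in Sox2 and 64.9 in control (0.033). NDUFS7, which carries the last iron-sulfur cluster before ubiquinone, read 111 in Sox2 and 97.5 in control (0.19), with 0.32 by its second probe set. These core subunits thus lay on both sides of 0, each by less than 1.5-fold. By their brightest probe sets, NDUFS1, NDUFS3 and NDUFS7 lay within the technical SD of 0.28. The highest complex I members were NDUFB5, of the membrane arm, at 83.1 in Sox2 against 63.0 in control (0.40), and NDUFS4, an accessory subunit of the NADH-oxidising part, at 64.4 in Sox2 against 49.6 in control (0.38). The second NDUFS4 probe set went the opposite way, at 34.9 in Sox2 against 46.9 in control. The 19 complex I members outside the 11 picked by the naming rule lay between -0.56 (NDUFA10) and 0.24, and 15 of them were below 0. Among them, NDUFB2-AS1, transcribed opposite to NDUFB2, read 71.2 in the Sox2 array and 66.4 in the control array and so did not share its lower reading. A further NDUFA10 probe set went the opposite way, at 56.8 in Sox2 against 38.5 in control (0.56), and another lay at -0.27.

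Complex II was the only complex with no member below 0 by the brightest probe sets, and its 3 members are not all of its subunits. SDHA, the flavoprotein that oxidises succinate, read 355 in the Sox2 array and 230 in the control array, 1.55-fold higher. SDHA has near-identical pseudogene copies, its probe set carries the _x_at suffix that marks possible cross-hybridisation, and the reading is therefore uncertain. SDHC and SDHD anchor the enzyme in the membrane. SDHC read 56.1 in Sox2 and 50.2 in control (0.16) with 0.030 and 0.31 by 2 further probe sets past the filter. SDHD read 92.3 in Sox2 and 86.4 in control (0.097), with -0.097 by its other probe set, which was under the filter. With 3 genes and differences within the technical SD for SDHC and SDHD, no difference between complex II and the other complexes was tested.

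Complex III held 4 members past the filter, with 3 below 0 and a median of -0.61. UQCR11, a small subunit of the complex, read 144 in the Sox2 array and 314 in the control array, 2.18-fold lower, the 48th lowest of all genes. A second probe set also read lower, at 60.4 in Sox2 against 91.8 in control (-0.60), which makes UQCR11 the 1 member whose lower reading 2 probe sets shared at over 1.5-fold. CYC1, cytochrome c1, which hands electrons to cytochrome c, read 91.6 in Sox2 against 170 in control (1.85-fold lower) by its single probe set. UQCRC1, a core protein, read 48.6 in Sox2 against 61.3 in control (-0.34), and UQCR10, a small subunit, 79.7 in Sox2 against 74.5 in control (0.097) with -0.21 by its other probe set. UQCRB, UQCRC2 and UQCRQ stayed under the filter, and with them the median of the 7 genes was -0.34.

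In complex IV, 12 of 15 members past the filter lay below 0, with a median of -0.22, and 2 were at least 1.5-fold lower. Of the 13 that are subunits, 10 lay below 0 and 1 (7.69%) was at least 1.5-fold lower, against 3.77% of all genes. COX7C, a small membrane subunit, read 209 in the Sox2 array and 329 in the control array (1.57-fold lower), and further probe sets, at -0.47 and -0.18, lay on the same side. The brightest COX7C probe set and that at -0.47 carry the _x_at suffix, and that at -0.18 does not. COX7A2L read 24.1 in Sox2 against 38.0 in control (1.58-fold lower), just over the filter and only in the control array. COX6A1 was the brightest member, at 8272 in Sox2 and 11090 in control (-0.42), and its other probe set read 210 in Sox2 against 474 in control, 2.26-fold lower. COX5B, which binds zinc, read 286 in Sox2 and 352 in control (-0.30), with 3 other probe sets at -0.46, -0.35 and -0.043. COX5A, at 50.25 in Sox2 and 50.01 in control, and COX8A, at 282 in Sox2 and 261 in control (0.11), were level or slightly higher.

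Several complex IV subunits exist as paralogs known from particular tissues, and not all of these forms passed the filter. The filter is the 50th percentile of the intensities, so passing it does not show that a form was expressed. COX4I1, the general form, read 67.6 in Sox2 and 75.9 in control (-0.17), and its second probe set above the filter went the other way, at 50.3 in Sox2 and 46.6 in control (0.11). COX4I2, known from lung and from cells at low oxygen, read 48.0 in Sox2 and 62.7 in control (-0.39). COX6A2, the heart and skeletal muscle form of COX6A1, read 124 in Sox2 and 131 in control (-0.082). COX6B1 read 76.9 in Sox2 and 88.7 in control (-0.21) and COX6B2, known from testis, 73.8 in Sox2 and 86.2 in control (-0.22). COX7A2, the general form, read 1144 in Sox2 and 1480 in control (-0.37), whereas COX7A1, the heart and skeletal muscle form, read 52.9 in Sox2 and 49.0 in control (0.11). COX7B, COX7B2 and COX8C stayed under the filter. The muscle markers MYH7, ACTN2 and CKM read 39.0, 37.1 and 55.9 in the Sox2 array and 38.0, 47.1 and 40.4 in the control array.

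In complex V, 13 of 15 members past the filter lay below 0, with a median of -0.42, and 4 were at least 1.5-fold lower. Of the 14 that are subunits, 12 lay below 0 and 3 (21.4%) were at least 1.5-fold lower, against 3.77% of all genes. The genes ATP5MC1, ATP5MC2 and ATP5MC3 encode 1 and the same mature c subunit, the protein of the rotating ring, and were read differently. ATP5MC2 read 622 in the Sox2 array and 1253 in the control array, 2.01-fold lower, and its other probe set 62.2 in Sox2 and 72.9 in control (-0.23). ATP5MC1 read 1883 in Sox2 and 3469 in control, 1.84-fold lower, by its single probe set. ATP5MC3 read 4130 in Sox2 and 4010 in control (0.042) by its brightest probe set and -0.30 and -0.19 by the others. The readings of ATP5MC1 and ATP5MC2 come from probe sets with the _s_at suffix, and how far each reads the others' transcripts was not tested.

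The F1 head, which holds the catalytic sites, had 4 of its 5 genes past the filter, all below 0. ATP5F1A and ATP5F1B, the alpha and beta subunits that form the catalytic ring, differed little, at 130 in Sox2 and 151 in control (-0.22) and at 137 in Sox2 and 143 in control (-0.058). ATP5F1C, the gamma subunit of the central shaft, read 849 in Sox2 and 1169 in control (-0.46), and its other probe sets at -0.79 and -0.34 lay on the same side. These ATP5F1C probe sets all carry the _x_at suffix, so their shared direction is uncertain. ATP5F1D, the delta subunit of the shaft, read 108 in Sox2 and 165 in control (1.53-fold lower), with -0.12 by its other probe set. The brightest ATP5F1D probe set also carries the _x_at suffix. ATP5IF1, which blocks the enzyme when it would run backwards, read 143 in Sox2 and 217 in control (1.52-fold lower), but its other probe sets lay at 0.17 and 0.093. ATP5PD, of the outer stalk, was the highest member of complex V at 60.1 in Sox2 and 49.9 in control (0.27), with -0.12 by its other probe set. The 6 members of complex V outside the naming rule lay between -0.56 (ATP5ME) and -0.13, all below 0 by their brightest probe sets. The other ATP5ME probe set lay at 0.010.

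**Figure D2:**
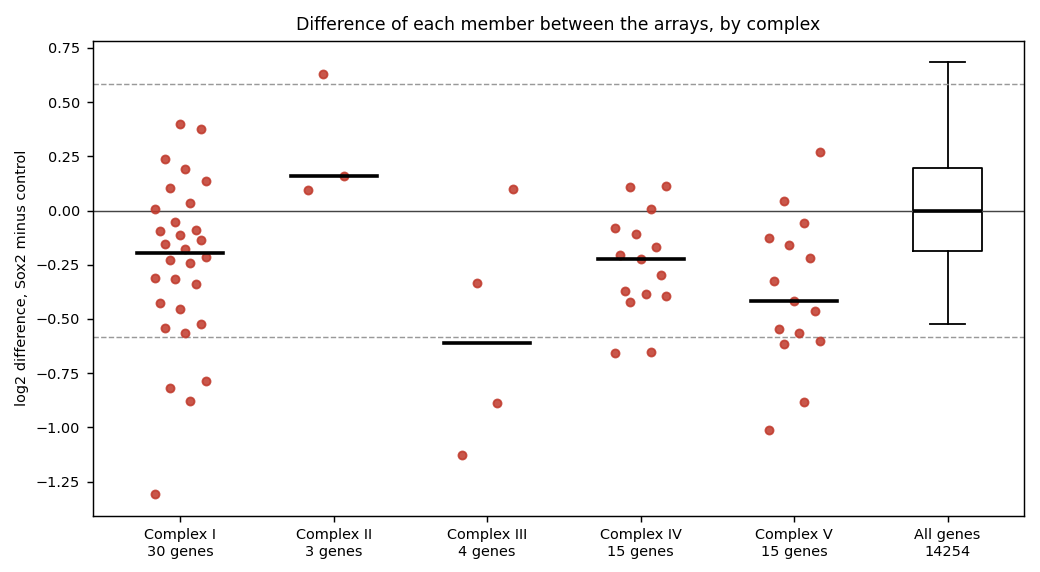
Points are the log2 differences, Sox2 minus control, of the members past the filter in each complex, black bars are medians, and the box gives the quartiles and the 5th and 95th percentiles of all 14254 genes, with dashed lines at 1.5-fold. The medians lie at -0.20, 0.16, -0.61, -0.22 and -0.42 for complexes I to V.

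Probe sets of the same genes that were not used as the gene's value showed a smaller shift. Of the 37 other probe sets past the filter, from 27 members, 25 (67.6%) lay below 0, against 49.2% of the 8684 other probe sets of all genes. Their median was -0.060, against 0.0053 for all. At least 1.5-fold lower were 3 (8.11%), against 2.82%: those of COX6A1, ATP5F1C and UQCR11. Among 27 members read by more than 1 probe set above the filter, all readings lay below 0 for 12 (44.4%), against 21.0% of 5495 genes. All readings lay above 0 for 2 of the 27 members, against 1219 of the 5495 genes. With the _x_at and _s_at probe sets left out, 4 of 49 members (8.16%) were at least 1.5-fold lower, in place of 12 of 67, against 3.47% of 11032 genes. They were CYC1, NDUFB8, UQCR11 and COX7A2L, the last of which passed the filter only through the control array. The median over the members was then -0.16, that of complex I -0.093 and that of complex V -0.091. With all probe sets of a gene averaged, 7 of 61 members (11.5%) were at least 1.5-fold lower, against 2.53% of 11168 genes, and the median of complex V was -0.16.

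**Figure D3:**
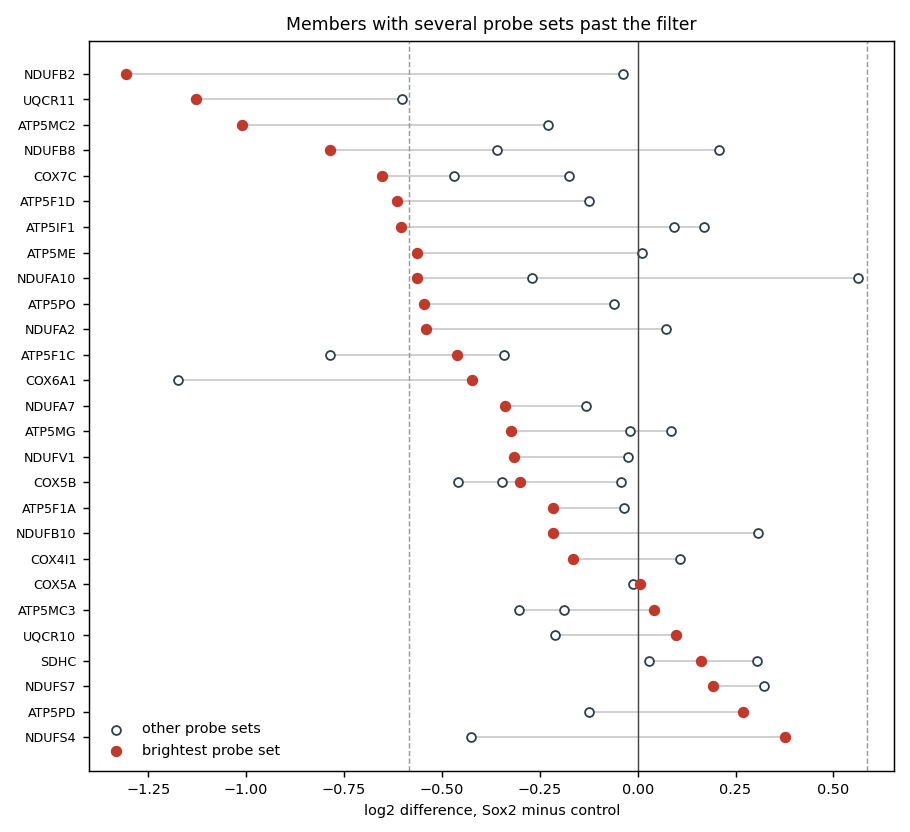
For the 27 members with several probe sets past the filter, filled points are the log2 differences of the brightest probe set and open points those of the others, with dashed lines at 1.5-fold. Brightest probe sets lie further below 0 than the others for NDUFB2, UQCR11 and ATP5MC2, and the reverse holds for COX6A1.

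The shift was larger among bright members. Of the 17 members with a geometric mean intensity of at least 256, 13 lay below 0 with a median of -0.42, while the 1026 genes of that range had a median of 0.14. Between 64 and 256 the medians were -0.22 for 26 members and -0.0012 for 6614 genes, and below 64 they were -0.12 for 24 members and -0.015 for 6614 genes. In the brightest range, 4 of 17 members and 92 of 1026 genes were at least 1.5-fold lower, and 1 member and 294 genes higher. The lower counts were 6 of 26 and 264 of 6614 from 64 to 256, and 2 of 24 and 181 of 6614 below 64. Differences of all genes spread most in the brightest range, with a median-based SD of 0.66 against 0.27 in the other ranges. Members were also short genes, with a median genomic length of 8242 bases against 24437 for all genes past the filter. Among the shortest quartile of all genes, up to 8868.5 bases, the median difference was -0.052, and it was 0.049 in the longest quartile. The 35 members in the shortest quartile had a median of -0.30, and 8 of them were at least 1.5-fold lower, against 179 of 3558 genes. With the trend on genomic length removed, the median of the members was -0.18 and 11 were at least 1.5-fold lower.

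**Figure D4:**
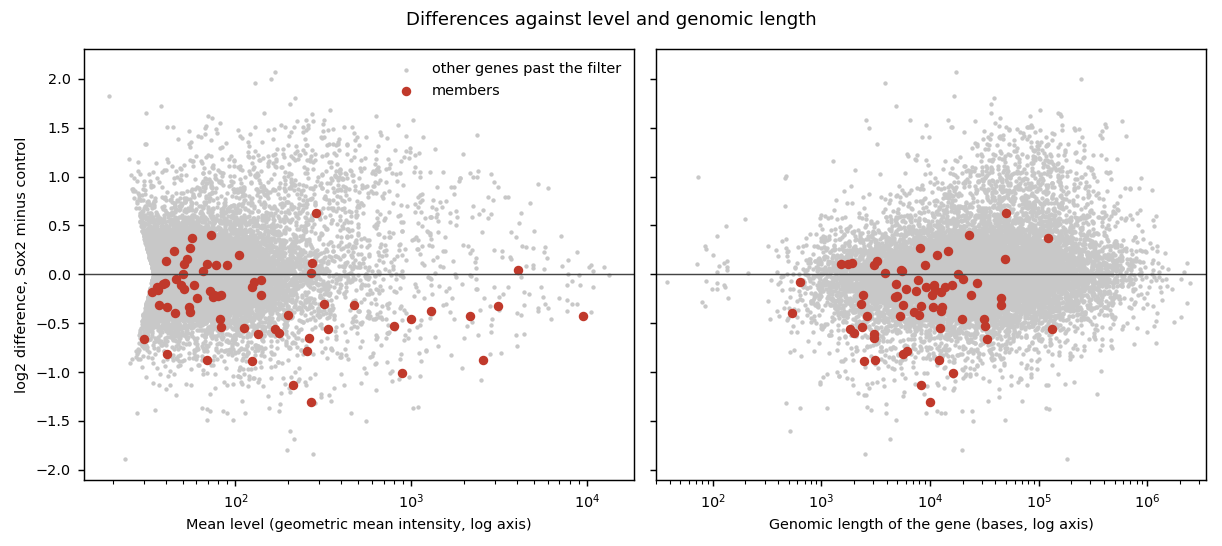
Each point is a gene past the filter, with its log2 difference, Sox2 minus control, against its mean level on the left and its genomic length in bases on the right, both on log axes. Members, drawn large, lie mostly below 0 at high levels, where the 1026 genes of at least 256 have a median of 0.14, and on the short side of the length axis.

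Other large complexes were counted in the same way. Of 54 cytosolic ribosomal protein genes past the filter, 50 (92.6%) lay below 0, with a median of -0.32. The share below 0 was 74.6% for the respiratory members and 50.4% for all genes. At least 1.5-fold lower were 8 (14.8%), against 17.9% of the respiratory members and 3.77% of all genes. Of 65 mitochondrial ribosomal protein genes, 46 (70.8%) lay below 0, 7 (10.8%) were at least 1.5-fold lower and 3 higher, with a median of -0.089. Of 30 proteasome genes, 15 lay below 0, 4 (13.3%) were at least 1.5-fold lower and 4 higher, with a median of -0.031. Over all genes past the filter, 3.77% were at least 1.5-fold lower and 6.46% higher. The differences between these groups were not tested.

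Lists of other mitochondrial and glycolytic genes had medians nearer 0. Of 16 complex I assembly factors past the filter, 4 lay below 0, with a median of 0.084. NDUFAF1, which helps to build the membrane arm, was the 1 member at least 1.5-fold different, at 265 in the Sox2 array and 151 in the control array (1.75-fold higher). Of 22 assembly factors of complexes II to V, 12 lay below 0, with a median of -0.029. At least 1.5-fold lower were 4 (18.2%), against 3.77% of all genes and 17.9% of the respiratory members. Most factors in this list act on complex IV, and so do these 4: SCO2, which delivers copper, at 35.3 in Sox2 against 62.9 in control, COX16 at 64.4 in Sox2 against 106 in control, COX14 at 86.2 in Sox2 against 139 in control, and COX18, which inserts a subunit into the membrane, at 86.2 in Sox2 against 132 in control. None of these 4 genes has a second probe set above the filter.

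Of 12 genes of the tricarboxylic acid cycle and pyruvate use, 5 lay below 0, with a median of 0.071. PC, pyruvate carboxylase, was the highest at 70.1 in Sox2 against 46.4 in control (1.51-fold). The 14 electron carrier and ubiquinone synthesis genes had 7 below 0 and none at 1.5-fold, with HCCS, which attaches haem to cytochrome c, differing most at 84.8 in Sox2 against 61.0 in control. Of 19 genes of mitochondrial gene expression and biogenesis, 11 lay below 0, with a median of -0.077. NRF1 read 75.6 in Sox2 and 72.1 in control (0.068), with -0.065 and -1.09 by its other probe sets past the filter. GABPA read 54.4 in Sox2 and 49.2 in control (0.14). YY1, a transcription factor with targets among mitochondrial genes, read 1897 in the Sox2 array and 1135 in the control array (1.67-fold higher), with 0.82, 0.14 and -0.044 by its other probe sets. In the import list of 16 genes, HSPA9, the mitochondrial HSP70 that pulls proteins inward, read 474 in Sox2 against 228 in control (2.08-fold higher, with 0.31 by its other probe set), and TOMM70, an outer membrane receptor, 262 in Sox2 against 163 in control (1.61-fold higher). Its median was 0.035. Of 17 glycolysis genes, 10 lay below 0, with a median of -0.045, PGK1 at 358 in Sox2 against 209 in control and TPI1 at 173 in Sox2 against 291 in control. The other probe set of TPI1 differed by -0.95, and those of PGK1 by -0.14 and 0.44. The mitochondrially encoded subunits could not be compared: their 10 probe sets, from 7 genes, read between 3.82 and 27.1 in the Sox2 array and between 3.46 and 33.7 in the control array, all under the filter.

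**Figure D5:**
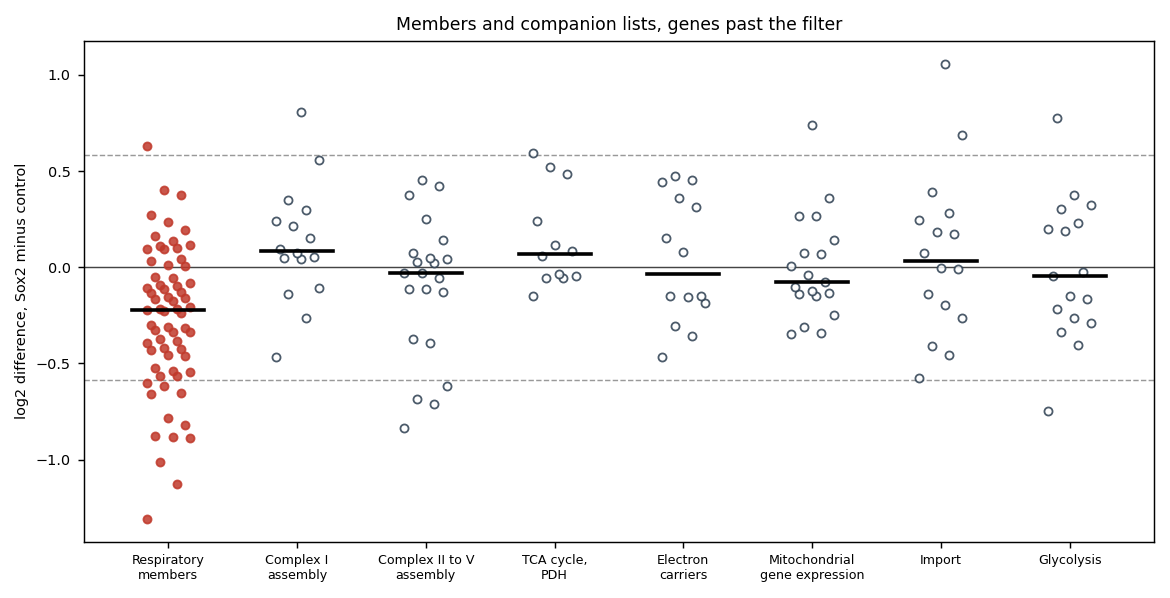
Points are the log2 differences, Sox2 minus control, of the respiratory members (filled) and of the genes of 7 companion lists (open) past the filter, black bars are medians and dashed lines mark 1.5-fold. The respiratory members have a median of -0.22, and the companion lists have medians between -0.077 and 0.084.

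The 15 members under the filter were NDUFA5, NDUFA11, NDUFB4, NDUFB6 and NDUFV2-AS1, UQCRB, UQCRC2 and UQCRQ, COX7B, COX7B2 and COX8C, and ATP5F1E, ATP5MC2P1, ATP5MK and ATP5PB. Their intensities lay between 6.07 and 29.2 in the Sox2 array and between 10.5 and 31.9 in the control array. Of these members, 11 lay below 0, with a range from -0.79 for COX8C to 0.34 for ATP5MC2P1. At this brightness, which lies in the lower part of all probe sets, the readings were not compared further.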

How the data were processed

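The deposited values are linear probe set intensities, 1 for each of 54675 probe sets and array. RMA is named, with no version or settings, per the submitters' processing notes. The step that left linear values is not given in the sources used here, and probe-level data were not used. Intensities were taken to log2 as deposited (lowest value 1), with no further scaling. Genes were named from the platform annotation, for the 41091 probe sets that list exactly 1 gene, and symbols were updated through gene IDs in RefSeq (GRCh38.p14), where 19731 of 19777 matched. The brightest probe set (mean over both arrays, log2) stood for its gene, and a gene entered where the higher value reached 34.25, which left 14254 genes.

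With 1 array per group there is no test and no p-value. Genes were counted by size, at least 1.5-fold, beside the same count over all genes past the filter, and the number of arrays limits the precision. The technical SD came from 3471 genes with exactly 2 probe sets past the filter. Named members were SOX2, all at least 1.5-fold different, the 2 largest differences each way in each complex, the catalytic core and the tissue paralogs. Of each companion list, up to 4 genes at least 1.5-fold different were named, or the 1 with the largest difference. Genes outside this rule were named after their values were seen. The members and lists were chosen with earlier results of these data known. Counting was tested on simulated data. Promoters came from RefSeq. Alternatives covered probe set choice, the filter, scaling, genomic length (lowess, span 0.3), the size and the member list. Python 3.11.15, numpy 2.4.6, pandas 2.3.3, statsmodels 0.14.6 and matplotlib 3.10.9 were used.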

Additional observations from a re-analysis of the deposited data

How the results depend on the processing

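With 1 array per group, 1.5-fold counts and medians have no replicate error. A median was taken as moved where it changed by more than a technical error. That error was the technical SD scaled by the number of genes, with genes taken as independent. It holds no error between arrays or cultures and served only to label settings. No paired analysis was possible because each group has 1 array. The median over the members, -0.22, was -0.17 with all probe sets of a gene averaged, -0.16 with the _x_at and _s_at probe sets left out, -0.32 with the filter at the 75th percentile and -0.18 with the trend on genomic length removed. The same settings gave, where they moved it, -0.12, -0.093 and -0.28 for complex I (averaged, without those suffixes, stricter filter) and 0.63 for complex II (averaged, 1 gene left). For complex V they gave -0.16 (averaged) and -0.091 (without those suffixes). With no filter, complex III had -0.34 and complex V -0.22, and quantile normalization gave complex V -0.53. Centring on 42 control probe sets moved the median of all genes to 0.63. It turned the median of the members to 0.40, of complex I to 0.43, of complex III to 0.017, of complex IV to 0.40 and of complex V to 0.21, and put complex II at 0.79. This setting adds 1 constant to every gene, which by itself fixes these reversals and the counts under it. The 12 members at least 1.5-fold lower became 7 (averaged), 4 (without those suffixes), 1 (control probe sets), 3 at 2-fold and 28 at a log2 size of 0.32. The 1 member at least 1.5-fold higher became 0 without those suffixes, with lowess on level, with quantile normalization and at 2-fold, 17 on the control probe sets and 3 at a log2 size of 0.32. ATP5IF1 turned to 0.17 without those suffixes and NDUFS4 to -0.025 when averaged. The cause was not tested.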
